A study of Mus musculus with 6 samples.

Results

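The *Tex* (testis expressed) genes are a set of largely unrelated genes that share a name because their transcripts were found in the testis. Members were taken as the protein-coding rows of the deposited gene table whose symbol starts with Tex followed by a digit, other than *Tex11* and *Tex12*. This gave 36 genes of 54532 rows, of which 22046 rows were protein-coding. RNA was sequenced from STRA8+ germ cells of mouse testis in 6 libraries. Control replicates 1 to 3 had the genotype Cre, and cKO (conditional knockout) replicates 1 to 3 had the genotype *Srsf1* knockout. *Srsf1* encodes a splicing factor of the serine/arginine-rich family. The Cre driver, the age of the mice and the number of animals per library were not given in the labels, nor was it stated that libraries came from separate animals, so the p-values measure only the spread between these libraries, which may be technical.

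Some *Tex* genes act in most cells, such as *Tex2* at membranes of the endoplasmic reticulum and *Tex10* in ribosome assembly. Others act in the mitotic and early meiotic germ line, where *Tex14* keeps sister germ cells joined by intercellular bridges and *Tex15* and *Tex19.1* take part in the silencing of transposons. A further set encodes parts of spermatids and sperm, among them proteins that line the inside of the doublet microtubules of the flagellum.

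Between 14447887 and 17310353 fragments per library were counted on genes. Levels are given as the deposited FPKM (counted fragments divided by gene length and by a library size), and differences are log2 fold changes of FPKM + 1, cKO minus control, from limma with Benjamini-Hochberg adjustment over the 15451 genes whose mean level reached 1 FPKM. A gene was called higher or lower at an adjusted p of at most 0.05. *Srsf1* stood at 84.7, 45.2 and 51.9 FPKM in control replicates 1, 2 and 3 and at 5.08, 4.94 and 5.17 FPKM in cKO replicates 1, 2 and 3, a difference of -3.29 ± 0.22 (SE, n = 3 per group, limma adjusted p = 5.65e-05). *Stra8*, the gene of the cell label, was present in all libraries (244 FPKM in control and 272 FPKM in cKO, limma adjusted p = 0.359). Its presence alone does not check the label. Of 8 markers of undifferentiated spermatogonia, 1 was lower (*Id4*), and of 8 of differentiating spermatogonia, 1 was lower (*Dmrtb1*). In these lists 0 were higher. Of 4 markers of germ cells of all stages, 3 were lower (*Ddx4*, *Mael* and *Tdrd1*) and 1 was higher (*Dazl*). Markers of spermatids were also present in the control libraries: the summed level of 10 such genes was 2631, 8622 and 2583 FPKM in control replicates 1, 2 and 3 and 8.61 to 10.4 FPKM in cKO, and 10 of 10 were lower, with none at 0 in all cKO libraries. Of 10 pachytene markers, 9 were lower (summed level 1133 to 1317 FPKM in control and 237 to 265 FPKM in cKO). Of 10 early meiotic prophase markers, 2 were lower (910 to 1209 FPKM in control and 965 to 1275 FPKM in cKO). Among all genes tested, 22.2% were lower and 11.8% were higher. The spermatid markers *Tnp1*, *Tnp2*, *Prm2*, *Acrv1*, *Odf1* and *Akap4* had a cKO mean under 1 FPKM and were tested only because of their control level. The same holds for the pachytene markers *Pgk2*, *Pou5f2* and *Spata16*. Of 25 somatic markers, 13 were tested, 1 was higher (*Rhox5*) and 0 were lower. Their summed level was 86.7 to 98.9 FPKM in control and 144, 68.4 and 89.8 FPKM in cKO replicates 1, 2 and 3. Within it, the sum of the 8 Sertoli cell markers was 57.8 to 86.9 FPKM in control and 120, 48.5 and 66.5 FPKM in cKO, so that cKO replicate 1 stood apart, and the sum of the 5 peritubular cell markers was 3.69 to 6.44 FPKM in control and 7.04 to 8.16 FPKM in cKO, without overlap. In these bulk samples, fewer cells of a type and less RNA per cell cannot be told apart. Control replicate 2 thus stood apart in spermatid markers, and the values of the lower members are given with and without it.

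Of the 36 members, 34 were tested, and *Tex28* and *Tex13c3* were under the filter on the mean level. In cKO, 21 members were lower, where 22.2% of all genes tested were lower. Another 4 were higher, where 11.8% of all genes tested were higher, and 9 did not pass the threshold. The 3 control and 3 cKO libraries did not overlap for 22 tested members with cKO lower (28.6% of all genes tested) or for 5 with cKO higher (21.8% of all genes tested), and they overlapped for 7. The filter bears on this count: 20 of the 21 lower members had a cKO mean under 1 FPKM and were tested only because of their control level, so their number is a description. Of the 14 members with a mean of at least 1 FPKM in each group, 1 was lower (*Tex2*), 4 were higher (*Tex13c2*, *Tex19.1*, *Tex13b* and *Tex19.2*) and 9 did not pass. This split itself leaves out genes that are near 0 in cKO, and the shares of all genes under the same limit are not given here. The median difference of the tested members was -1.57, beside -0.0082 for all genes tested, and -1.53 with the 4 tested members at 0 in cKO set to a floor of 3 fragments per cKO library on the same scale. It moved with the settings, to -0.11 with a mean of at least 5 FPKM, where 22 members were tested, to -3.18 with a pseudocount of 0.1 and to -3.45 with limma-voom on fragments. Under quantile normalization, which moved the median of all genes to 0.21 and the share of calls that were higher from 34.6% to 67.1%, 21 members were lower and 5 were higher.

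**Figure D1:**
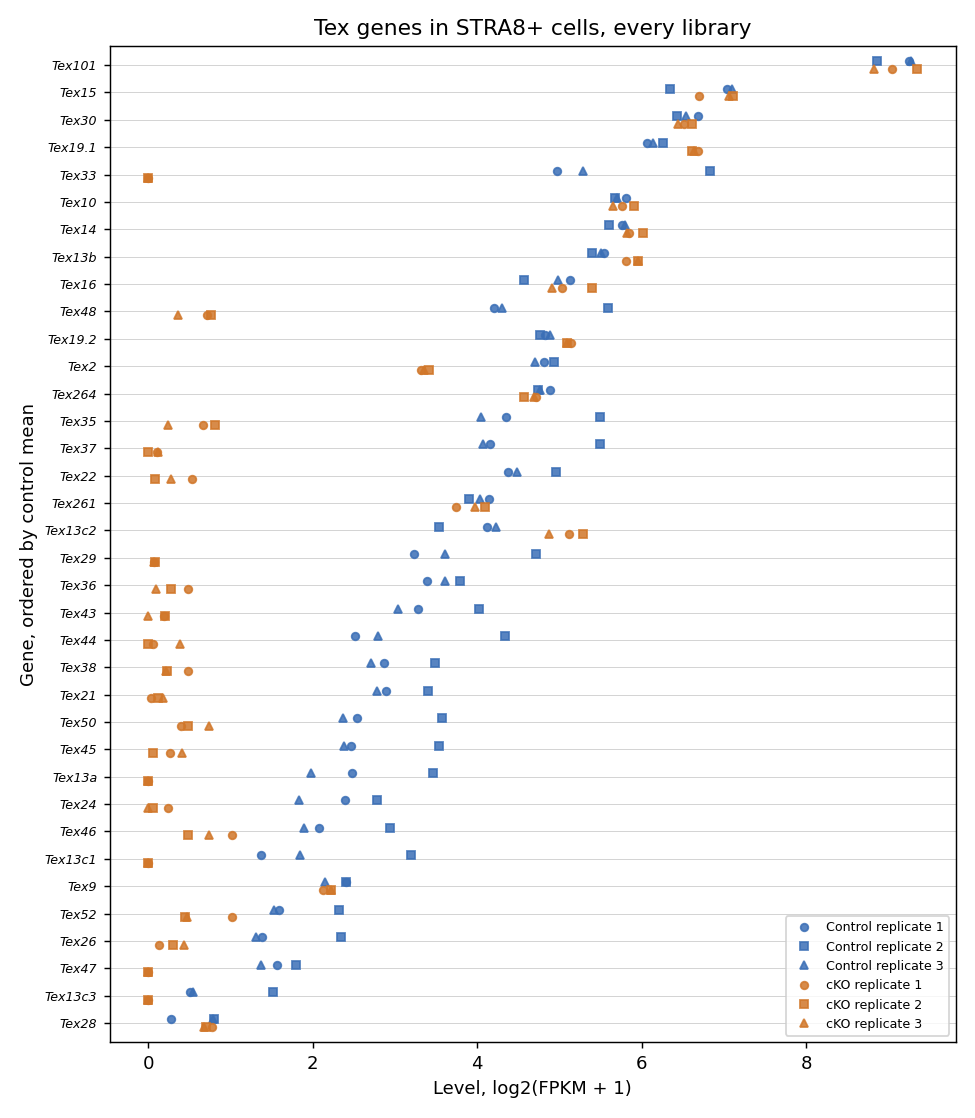
Level of each of the 36 *Tex* genes in every library. The horizontal axis is log2(FPKM + 1), genes are ordered by their control mean, blue symbols are control libraries, orange symbols are cKO libraries, and the symbol shape gives the replicate number. For 20 of the 21 lower genes the cKO libraries sit near 0, whereas those of *Tex2* stand between 8.93 and 9.66 FPKM.

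**Figure D2:**
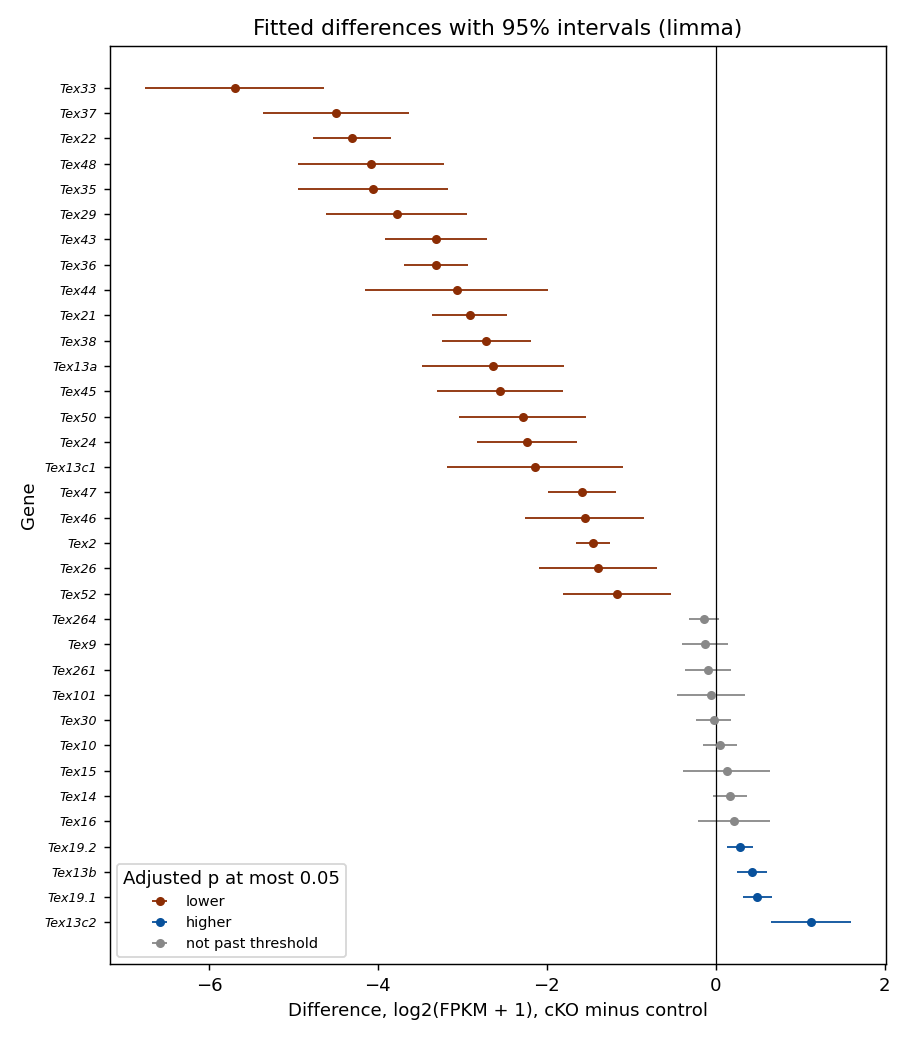
Fitted difference for the 34 tested members on the log2(FPKM + 1) scale, cKO minus control (limma). Points are estimates, lines are 95% intervals, and colours mark genes lower, higher or not past the threshold. The estimates run from -5.69 for *Tex33* to 1.13 for *Tex13c2*.

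Most lower members held few CpG dinucleotides in their promoters, and *Tex2* held the most of all members. In the promoter table, 30 of 36 members had a window of 300 bases, from 250 before the annotated start to 50 after it (*Tex15*, *Tex22*, *Tex24*, *Tex43*, *Tex13a* and *Tex13c2* did not). CpG dinucleotides, which read CG on each strand, were counted in each window. Among lower members other than *Tex2*, 16 had a window, with a median of 3 CpG (0 to 15), and 15 of the 16 held at most 6, *Tex26* with 15 being the exception. Among the other 14 tested members, 12 had a window, with a median of 19.5 CpG (0 to 41), and 2 of the 12 held at most 6 (*Tex19.2* with 2 and *Tex16* with 0). The windows of *Tex16* and *Tex101* lay 82513 and 4625 bases from the start that the gene has in the deposited table, and those of the other members at most 493 bases from it. Of all 32851 promoters in the promoter table, 47.9% held at most 6 CpG, and the median was 7. These counts describe the sequence only.

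**Figure D3:**
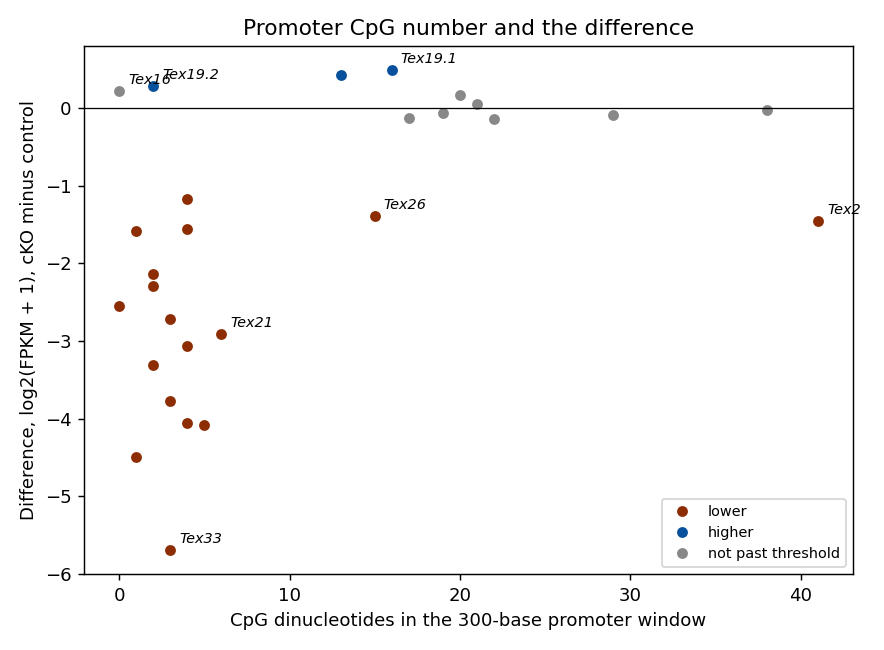
Number of CpG dinucleotides in the 300-base promoter window (horizontal axis) and difference on the log2(FPKM + 1) scale, cKO minus control (vertical axis), for tested members with a window. Colours mark lower, higher and not past the threshold. Lower members lie at 6 CpG or fewer except *Tex26* at 15 and *Tex2* at 41.

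Promoter windows of 4 members show this range, printed 5′ to 3′ on the strand of the gene in lower case with every CpG in capitals. The sequences are from RefSeq on GRCm38.p6. *Tex2* (chr11:106612881-106613180, minus strand, 41 CpG) and *Tex33* (chr15:78395863-78396162, minus strand, 3 CpG) are shown as the lower member with the most CpG and the one with the largest fall. The *Tex2* window starts from a RefSeq start 493 bases from that in the deposited table. *Tex19.1* (chr11:121145893-121146192, plus strand, 16 CpG) and *Tex19.2* (chr11:121118628-121118927, minus strand, 2 CpG) are shown as paralogs that were both higher, on opposite strands and 27465 bases apart.
Tex2: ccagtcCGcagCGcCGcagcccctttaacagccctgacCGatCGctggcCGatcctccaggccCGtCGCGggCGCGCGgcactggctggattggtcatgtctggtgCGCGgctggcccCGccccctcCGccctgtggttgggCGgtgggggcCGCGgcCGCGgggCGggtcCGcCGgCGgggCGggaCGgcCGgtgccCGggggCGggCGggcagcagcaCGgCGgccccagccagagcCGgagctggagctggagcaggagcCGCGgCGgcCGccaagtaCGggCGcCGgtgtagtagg
Tex33: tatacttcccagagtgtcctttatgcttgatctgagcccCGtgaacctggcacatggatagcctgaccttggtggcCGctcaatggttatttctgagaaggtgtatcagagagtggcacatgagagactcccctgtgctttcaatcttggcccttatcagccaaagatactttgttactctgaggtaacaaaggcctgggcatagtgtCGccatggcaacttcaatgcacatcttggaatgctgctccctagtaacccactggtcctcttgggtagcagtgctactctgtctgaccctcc
Tex19.1: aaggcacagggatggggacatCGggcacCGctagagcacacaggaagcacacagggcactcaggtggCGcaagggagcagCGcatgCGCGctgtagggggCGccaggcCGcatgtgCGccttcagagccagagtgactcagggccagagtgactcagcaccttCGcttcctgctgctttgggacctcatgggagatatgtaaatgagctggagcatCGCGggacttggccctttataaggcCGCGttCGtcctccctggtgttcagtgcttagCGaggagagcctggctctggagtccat
Tex19.2: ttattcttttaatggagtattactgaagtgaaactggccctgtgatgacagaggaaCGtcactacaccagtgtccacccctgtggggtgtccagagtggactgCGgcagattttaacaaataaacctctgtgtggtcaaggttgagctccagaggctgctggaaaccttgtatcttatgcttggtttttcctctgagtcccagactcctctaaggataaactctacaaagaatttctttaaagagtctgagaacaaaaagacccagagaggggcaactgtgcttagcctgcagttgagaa

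*Tex2*, which encodes a lipid transfer protein of endoplasmic reticulum membrane contacts, was the lower member with the highest level in cKO. The gene (ENSMUSG00000040548) lies on the minus strand at chr11:106502147-106613423 of GRCm38. It stood at 27.0, 29.6 and 25.0 FPKM in control replicates 1, 2 and 3 and at 8.93, 9.66 and 9.18 FPKM in cKO replicates 1, 2 and 3. All cKO libraries lay below all control libraries, and the cKO values rested on 778 to 789 fragments each. The means were 27.2 ± 2.27 FPKM and 9.26 ± 0.375 FPKM (SD, n = 3 per group), so that the cKO mean was 34.0% of the control mean. The difference was -1.46 ± 0.085 (SE; 95% interval -1.66 to -1.26; limma adjusted p = 3.20e-05). Without control replicate 2 it was -1.40. All of its 100-base windows in the annotated transcripts occurred in no other gene.

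The other members of the endomembrane system and the nucleolus did not pass the threshold. *Tex10*, a component of the rixosome that acts in the maturation of ribosomal RNA, stood at 54.9, 50.0 and 51.1 FPKM in control and at 53.4, 59.1 and 49.4 FPKM in cKO, with overlapping groups and a difference of 0.049 (95% interval -0.15 to 0.25, limma adjusted p = 0.683). *Tex264*, a receptor for the autophagy of endoplasmic reticulum, stood at 28.6, 25.7 and 26.1 FPKM in control and at 25.2, 22.8 and 24.8 FPKM in cKO. Its groups did not overlap, but the difference of -0.14 did not pass (95% interval -0.32 to 0.044, limma adjusted p = 0.212). *Tex261*, a protein of the early secretory pathway, stood at 16.7, 13.9 and 15.4 FPKM in control and at 12.4, 16.0 and 14.7 FPKM in cKO, with a difference of -0.089 (95% interval -0.36 to 0.18, limma adjusted p = 0.581). None of these 3 intervals reached the interval of *Tex2*.

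For *Tex30* and *Tex9* no role is given here. *Tex30* stood at 101, 85.0 and 91.9 FPKM in control and at 90.6, 96.4 and 86.0 FPKM in cKO, with a difference of -0.025 (95% interval -0.23 to 0.18, limma adjusted p = 0.846). It shares exon sequence with *Gm29247*, an overlapping gene on the same strand, and 90.4% of its windows were its own. *Tex9* stood at 4.29, 4.29 and 3.45 FPKM in control and at 3.37, 3.66 and 3.66 FPKM in cKO, with a difference of -0.13 (95% interval -0.40 to 0.14, limma adjusted p = 0.415). Of its exon bases, 32.3% overlap *Mns1* on the other strand, and whether counting used strand is not given in the sources used here. Groups overlapped for *Tex30* and for *Tex9*.

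In lists of genes that act beside these widely expressed members, calls are read beside the 11.8% of all genes tested that were higher and the 22.2% that were lower. Of 6 other rixosome genes tested, 2 were higher, *Las1l* by 0.55 (limma adjusted p = 0.00400) and *Nol9* by 0.33 (limma adjusted p = 0.0471), and 0 were lower, with a median of 0.054. The direct partners *Pelp1* and *Wdr18* gave -0.0046 (limma adjusted p = 0.969) and -0.13 (limma adjusted p = 0.298). Of 5 other receptors for autophagy of the endoplasmic reticulum tested, 1 was lower, *Retreg1* by -0.83 (limma adjusted p = 0.0305; -0.58 without control replicate 2), with a median of -0.14, or -0.0035 without that library. Of 10 genes of the COPII coat, which buds vesicles from the endoplasmic reticulum, 3 were higher and 3 were lower, led by *Sec24d* (1.10), *Sar1b* (0.54) and *Sec31a* (-0.49), and the median was -0.00027, or -0.017 without control replicate 2.

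Of the members that act in mitotic and early meiotic germ cells, those of the *Tex19* pair were higher in cKO. *Tex19.1*, a repressor of retrotransposons that binds the ubiquitin ligase UBR2 (ENSMUSG00000039329, plus strand, chr11:121146143-121148319), stood at 65.6, 75.8 and 69.2 FPKM in control and at 102, 97.0 and 98.3 FPKM in cKO. All cKO libraries lay above all control libraries, the ratio of the means was 1.41, and the difference was 0.49 ± 0.074 (SE; 95% interval 0.32 to 0.67; limma adjusted p = 0.00243). Its paralog *Tex19.2* stood at 27.4, 26.1 and 28.5 FPKM in control and at 34.2, 33.0 and 33.2 FPKM in cKO. The groups did not overlap, the ratio of the means was 1.23, and the difference was 0.28 ± 0.064 (SE; 95% interval 0.13 to 0.44; limma adjusted p = 0.0146). This call was lost without cKO replicate 1 (0.27, limma adjusted p = 0.0509) and without cKO replicate 3 (0.29, limma adjusted p = 0.0551). No 100-base window of either gene occurred in the other.

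*Tex14* and *Tex15* did not pass the threshold. *Tex14*, which the intercellular bridges require, stood at 53.3, 47.6 and 54.8 FPKM in control and at 56.5, 63.6 and 55.7 FPKM in cKO. Its groups did not overlap, with a difference of 0.17 ± 0.085 (SE; 95% interval -0.030 to 0.37; limma adjusted p = 0.165), which was 0.11 without control replicate 2, and under quantile normalization it was called higher (0.26, limma adjusted p = 0.0438). *Tex15*, which acts with the PIWI protein MILI in the methylation of transposons, stood at 130, 80.0 and 136 FPKM in control and at 103, 137 and 132 FPKM in cKO. The groups overlapped, control replicate 2 was the lowest library, and the difference was 0.13 (95% interval -0.39 to 0.65, limma adjusted p = 0.678). Without control replicate 2 it was -0.11 (limma adjusted p = 0.553).

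Among genes of the intercellular bridge other than *Tex14*, 8 were tested, of which 2 were higher (11.8% of all genes tested) and 0 were lower (22.2%), with a median of 0.12, or 0.043 without control replicate 2. *Kif23*, a kinesin of the midbody, was higher by 0.62 (limma adjusted p = 0.00404), and *Anln*, an actin-binding protein of the contractile ring, by 0.35 (limma adjusted p = 0.0101). *Cep55*, the direct partner of TEX14, gave -0.19 (limma adjusted p = 0.239). Among 7 genes of transposon silencing tested, 0 were higher and 3 were lower (22.2% of all genes tested), *Mael* by -0.43, *Mov10l1* by -0.31 and *Piwil2*, the gene of MILI, by -0.30, with a median of -0.19. *Mael* is also among the markers of germ cells of all stages given above. Of the other partners, *Ubr2* (0.21, limma adjusted p = 0.137), *Piwil4* (0.43, limma adjusted p = 0.0973) and *Spocd1* (-0.0042, limma adjusted p = 0.990) did not pass.

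The pair of members that act at germ cell membranes differed in outcome. *Tex101*, a glycosylphosphatidylinositol-anchored surface protein of germ cells, had the highest level of all members (ENSMUSG00000062773, minus strand, chr7:24668007-24676675), at 610, 464 and 620 FPKM in control and 527, 650 and 452 FPKM in cKO. The groups overlapped, and the difference was -0.060 (95% interval -0.46 to 0.34, limma adjusted p = 0.811). *Tex38*, a membrane protein that binds the palmitoyltransferase ZDHHC19 of spermatids, stood at 6.28, 10.3 and 5.55 FPKM in control and at 0.397, 0.170 and 0.164 FPKM in cKO. All cKO libraries lay far below all control libraries, with a difference of -2.71 ± 0.22 (SE, limma adjusted p = 0.000149) and of -2.48 without control replicate 2. *Zdhhc19* had a mean of 4.64 FPKM in control and 0.0675 FPKM in cKO (difference -2.32, limma adjusted p = 0.00106; -1.98 without control replicate 2) and, like *Tex38*, was tested only because of its control level. Of 6 further membrane proteins of germ cells, 4 were lower, where 22.2% of all genes tested were lower, led by *Adam3* (-5.84), *Lypd4* (-4.33) and *Ace* (-2.81, or -2.38 without control replicate 2). *Adam3*, with a cKO mean of 0.00745 FPKM, was tested only because of its control level, and *Ly6k*, the direct partner of TEX101, did not pass (0.30, limma adjusted p = 0.232).

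All 4 members of the flagellar doublet microtubule in the table were called lower, where 22.2% of all genes tested were lower, and all 4 had a cKO mean under 1 FPKM and were tested only because of their control level. *Tex33* (ENSMUSG00000062154, minus strand, chr15:78378400-78395912) stood at 30.3, 113 and 38.0 FPKM in control replicates 1, 2 and 3, from 620, 2147 and 815 fragments, and at 0 in each cKO library. With a floor of 3 fragments per cKO library, it was at least 379-fold lower, or at least 214-fold without control replicate 2, and the fitted difference was -5.69 ± 0.45 (SE, limma adjusted p = 0.000122). *Tex37* stood at 16.9, 43.8 and 15.8 FPKM in control and at 0.0782, 0 and 0.0808 FPKM in cKO, where 2 fragments were counted in all (difference -4.50 ± 0.36, limma adjusted p = 0.000140). For *Tex33* and *Tex37* the groups were far apart and control replicate 2 was the highest library. *Tex43* stood at 8.72, 15.2 and 7.17 FPKM in control and at 0.139, 0.149 and 0 FPKM in cKO (difference -3.31 ± 0.25, limma adjusted p = 0.000110). *Tex45* stood at 4.50, 10.6 and 4.21 FPKM in control and at 0.196, 0.0422 and 0.325 FPKM in cKO (difference -2.55 ± 0.32, limma adjusted p = 0.00102). Without control replicate 2 the differences were -5.13 for *Tex33*, -4.04 for *Tex37*, -3.03 for *Tex43* and -2.18 for *Tex45*.

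Of 17 other genes of the doublet microtubule tested, 16 were lower and 0 were higher, where 22.2% of all genes tested were lower. Of these 16, 9 had a cKO mean under 1 FPKM and were tested only because of their control level, and 7 had a mean of at least 1 FPKM in each group. The median was -2.50, or -2.45 without control replicate 2, with 16 lower, and the tektins led, *Tekt4* by -4.25 (limma adjusted p = 2.15e-05), *Tekt1* by -4.04 and *Tekt3* by -3.90. *Efhc2*, named here after its value was seen, was the exception at 0.020 (limma adjusted p = 0.941). The list was drawn up with results of these libraries known, and the spermatid markers given above fell in the same libraries. The part of these markers in the differences was not tested.

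**Figure D4:**
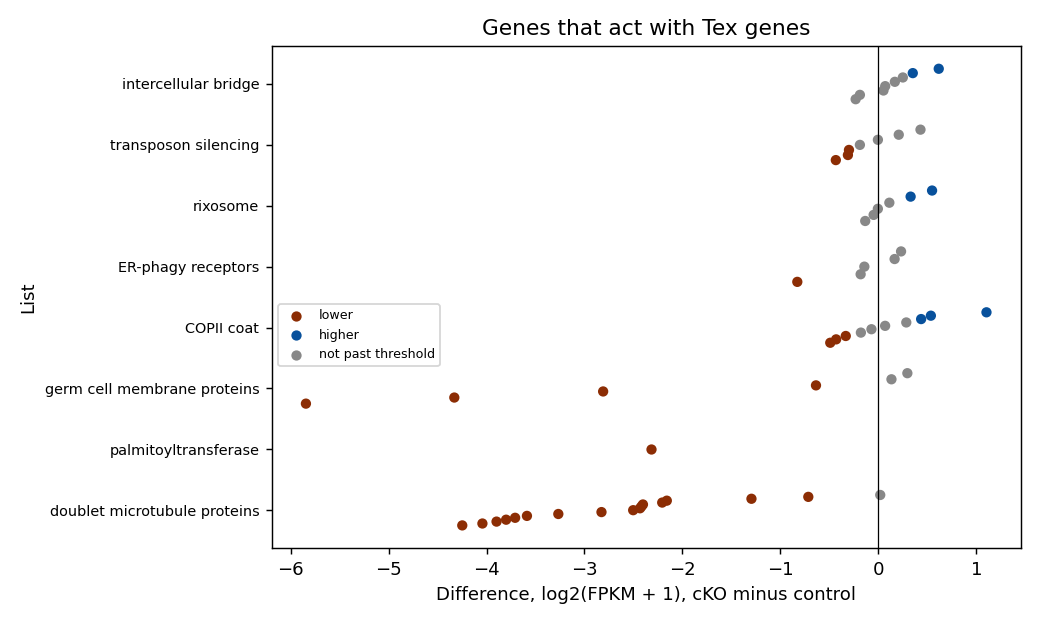
Differences on the log2(FPKM + 1) scale, cKO minus control, for genes that act with members, grouped by list. Each point is 1 tested gene, coloured as lower, higher or not past the threshold. In the doublet microtubule list 16 of 17 genes were lower and in the intercellular bridge list 0 of 8, where 22.2% of all genes tested were lower. Of the 16, 9 had a cKO mean under 1 FPKM and were tested only because of their control level.

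The X-linked members went in both directions. Of 7, 5 were tested, with 2 higher, where 24.4% of the 634 X-linked genes tested were higher, and 2 lower, where 11.7% were lower. *Tex13c2* stood at 16.4, 10.6 and 17.8 FPKM in control and at 33.5, 38.1 and 28.4 FPKM in cKO, a ratio of means of 2.23 and the largest rise of the members (difference 1.13 ± 0.20, limma adjusted p = 0.00507; 0.92 without control replicate 2). *Tex13b* stood at 45.5, 41.0 and 44.4 FPKM in control and at 55.1, 60.9 and 61.0 FPKM in cKO, a ratio of 1.35 (difference 0.43 ± 0.074, limma adjusted p = 0.00494). For *Tex13c2* and *Tex13b* all cKO libraries lay above all control libraries.

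Their relatives *Tex13a*, *Tex13c1* and *Tex13c3* were at 0 in every cKO library. *Tex13a* stood at 4.56, 10.1 and 2.94 FPKM in control and was at least 39.0-fold lower in cKO, or at least 25.0-fold without control replicate 2 (difference -2.64 ± 0.35, limma adjusted p = 0.00150; -2.23 without that library). *Tex13c1* stood at 1.58, 8.18 and 2.59 FPKM in control and was at least 43.2-fold lower, or at least 21.9-fold without control replicate 2 (difference -2.14 ± 0.44, limma adjusted p = 0.00974; -1.61 without that library). *Tex13c3*, which was not tested, stood at 0.416, 1.86 and 0.462 FPKM in control, from 6, 25 and 7 fragments, and was at least 4.05-fold lower, or at least 1.94-fold without control replicate 2. In the annotated transcripts every 100-base window of these 5 *Tex13* genes occurred in that gene alone. *Tex16* stood at 34.0, 22.8 and 30.5 FPKM in control and at 31.8, 41.0 and 29.0 FPKM in cKO and did not pass (0.22, 95% interval -0.21 to 0.64, limma adjusted p = 0.384; 0.057 without control replicate 2). *Tex28* was not tested and stood at 0.213, 0.733 and 0.730 FPKM in control and at 0.715, 0.623 and 0.600 FPKM in cKO, with overlapping groups.

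The remaining 13 lower members are autosomal, and no role is given for them here. Among them were the other large differences: *Tex22* stood at 19.6, 30.0 and 21.3 FPKM in control and at 0.451, 0.0538 and 0.207 FPKM in cKO (difference -4.31 ± 0.19, limma adjusted p = 1.03e-05). *Tex48* stood at 17.4, 47.0 and 18.6 FPKM in control and at 0.647, 0.694 and 0.286 FPKM in cKO (difference -4.08 ± 0.36, limma adjusted p = 0.000214). *Tex35* stood at 19.3, 44.1 and 15.4 FPKM in control and at 0.582, 0.750 and 0.181 FPKM in cKO (difference -4.06 ± 0.37, limma adjusted p = 0.000244). In these 3 genes each cKO library lay under 1 FPKM and each control library at 15.4 FPKM or more. Without control replicate 2 the differences were -4.13 for *Tex22*, -3.64 for *Tex48* and -3.62 for *Tex35*. The differences of *Tex29* (-3.78), *Tex36* (-3.31), *Tex44* (-3.07), *Tex21* (-2.91), *Tex50* (-2.28), *Tex24* (-2.24), *Tex47* (-1.58), *Tex46* (-1.55), *Tex26* (-1.39) and *Tex52* (-1.17) also passed, and without control replicate 2 they ran from -3.35 for *Tex29* to -0.91 for *Tex52*. *Tex47* was at 0 in every cKO library and was at least 36.9-fold lower (32.6-fold without control replicate 2), and *Tex29* had 1 fragment in each. *Tex24* shares sequence with *Gm6853* and had 89.1% of its windows to itself. *Tex52*, which overlaps *Foxm1* on the same strand, was the smallest fall, and its call was lost without cKO replicate 2 (limma adjusted p = 0.0530) and without cKO replicate 3 (limma adjusted p = 0.0584).

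The 20 lower members other than *Tex2* were at or near 0 in cKO. Their control means ran from 2.01 to 60.4 FPKM, their highest cKO mean was 0.700 FPKM and the highest value in any cKO library was 1.02 FPKM. Of the 20, 4 were at 0 in all cKO libraries, 2 had 1 to 3 cKO fragments in all, and 14 kept 0.924% to 22.4% of their control mean, with a median of 2.0%. Without control replicate 2 the control means ran from 1.55 to 34.1 FPKM and the 14 kept 1.16% to 30.3%, with a median of 2.95%. A cKO mean of at most 10% of the control mean was found for 18 of 34 tested members (52.9%) and for 7.80% of all genes tested, and for 16 members without control replicate 2. These 18 had a cKO mean under 1 FPKM and were tested only because of their control level, so their share is a description. The genes of the 20 lower members were short, with a median length of 1266 bases (683 to 3623), beside 3481 bases (1657 to 9622) for the other 14 tested members and 3275 bases for all genes tested.

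The same 20 members also varied together among the control libraries. Control replicate 2 was the highest control library for 20 of 20, where it was the highest for 38.7% of all genes tested, for 51.0% of genes called lower and for 35.1% of the rest. Its level was 1.25 to 3.92 times the mean of replicates 1 and 3, with a median of 2.43. The spermatid markers had a ratio of 3.31 by their summed level, and the pachytene markers of 1.09. Among somatic markers the ratio was 3.33 for Leydig cells, 1.64 for peritubular cells, 1.66 for macrophages and blood and 0.725 for Sertoli cells. The Leydig ratio came from low sums of 5.45, 14.0 and 2.95 FPKM in control replicates 1, 2 and 3. Of these, *Insl3* gave 2.14, 9.74 and 0 FPKM, whereas *Star* gave 2.57, 2.76 and 2.77 FPKM. The other Leydig markers were under 1 FPKM in each control library. For the other 14 tested members, control replicate 2 was the lowest in 11 (39.0% of all genes tested) and the highest in 2, with a median ratio of 0.896 (0.600 to 1.14). Without control replicate 2, with the same 15451 genes in the fit, all 21 lower members were still called lower by limma and the median difference of the tested members was -1.43. *Tex13c1*, *Tex26* and *Tex47* had a mean under 1 FPKM over the other 5 libraries, so that they were tested only because of their level in control replicate 2, and its place as the highest library is in part set by the filter for these 3. It was also the highest for the other 17. The part of the spermatid and somatic markers in this spread was not tested.

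**Figure D5:**
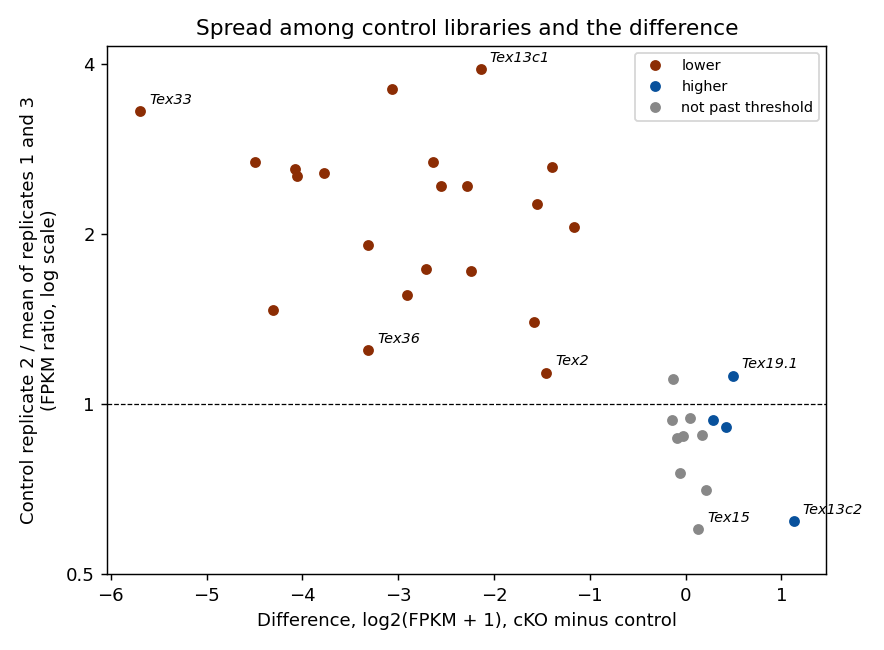
Ratio of control replicate 2 to the mean of control replicates 1 and 3 (FPKM, log scale, vertical axis) against the difference on the log2(FPKM + 1) scale, cKO minus control (horizontal axis), for tested members. The dashed line marks a ratio of 1. Lower members lie above it, from 1.14 for *Tex2* to 3.92 for *Tex13c1*, and *Tex15* has the lowest ratio at 0.600.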

How the data were processed

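RNA-seq of STRA8+ germ cells was taken from 6 libraries, grouped as control or cKO by the titles and genotypes in their labels. The authors deposited 1 table of FPKM with gene lengths for 54532 genes. The submitters' processing notes name HISAT2 2.0.5 and mm10, and the counting tool is not given in the sources used here. The product of FPKM and gene length was a whole number of steps (tolerance 0.02) for 100% of values above 0, which gave the fragments per gene. The denominator of the deposited FPKM was 0.971 to 1.05 times the summed fragments of a library, so the values already carry a library factor.

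Genes whose mean over all libraries reached 1 FPKM entered limma 3.58.1 (lmFit, eBayes with trend) in R 4.3.3 on log2(FPKM + 1), with genotype as the only term, Benjamini-Hochberg adjustment and a threshold of 0.05. The pseudocount of 1 understates the change of low genes. The fit was also run on simulated data, which did not model the spread seen for control replicate 2. No support for the calls of the members is drawn from that run. The smallest p that exact permutation of 3 libraries against 3 allows for a gene is 0.1. Members at 0 in cKO were compared at a floor of 3 fragments per library, which covers counting error only. Per-library values are given for members grouped by role, for widely expressed and X-linked members, and for the largest called changes with groups that do not overlap (at most 5 in each direction). Of the lists, direct partners and the 3 largest called changes are named. The members and lists were chosen with earlier results of these data known.

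Shared sequence was measured as 100-base windows of GENCODE M21 transcripts. Alternatives were a pseudocount of 0.1, no filter or a mean of at least 5 FPKM, median-of-ratios scaling, quantile normalization, eBayes without trend, a replicate block, limma-voom on the recovered fragments and leaving out each library. FPKM recomputed without the library factors was added after the data were seen.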

Additional observations from a re-analysis of the deposited data

How the results depend on the processing

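Of 498 comparisons of a member's difference with its value under another setting, 478 kept their direction and their side of the threshold, 14 changed sign, 5 lost the call and 1 gained it. Part of this count was fixed in advance. Both filter settings, eBayes without trend and the replicate block leave a member's difference as it was, so its sign could not change. Median-of-ratios scaling divided every library by the same factor of 1.006 and could hardly change a result. No member that passed the threshold changed sign. The sign changes were, under quantile normalization, *Tex9* (0.19), *Tex261* (0.057), *Tex101* (0.018) and *Tex30* (0.067), and 0.023 for *Tex30* both with limma-voom and without the library factors. Leaving out 1 library at a time gave differences of both signs for *Tex101* (-0.20 to 0.064), *Tex30* (-0.086 to 0.041), *Tex15* (-0.11 to 0.27), *Tex261* (-0.17 to 0.0066) and *Tex10* (-0.017 to 0.11). The replicate block, which the numbers do not support (deviations of same-numbered libraries had r of -0.0014, -0.11 and 0.016 over 15451 genes), lowered the genes called higher from 1821 to 891 and ended the call of *Tex19.2* (limma adjusted p = 0.0731). Quantile normalization called 5164 genes higher. A mean of at least 5 FPKM left 1950 genes lower and 10 members lower, since 11 of the 21 were no longer tested. The median difference of the members was -3.18 with a pseudocount of 0.1, -0.11 with a mean of at least 5 FPKM, -1.22 under quantile normalization and -3.45 with limma-voom. Leaving out 1 library gave 969 to 1767 genes higher (969 without cKO replicate 3, 1068 without control replicate 1, 1079 without control replicate 3 and 1172 without cKO replicate 1), 20 to 21 members lower and 3 to 4 higher. For the low cKO levels, depth limits the size of a fall: 1 fragment per kilobase was worth 0.0636 to 0.0683 FPKM in the cKO libraries.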
